A study of Mus musculus with 8 samples.

Results

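Cytotoxic Cd4 T cells that express granzyme K and the chemokine Ccl5 were selected from mouse bone marrow T cells by their own transcripts. A barcode was taken as a member when it held 200 or more genes, no more than 15% of its UMIs (unique molecular identifiers, each of which marks 1 captured RNA molecule) from mitochondrial genes, at least 1 UMI of Cd3d, Cd3e or Cd3g, at least 1 of Cd4, Gzmk and Ccl5, and none of Cd8a, Cd8b1 or Foxp3. This gave 1792 members among the 5921 Cd4 cells without Foxp3 and the 56649 barcodes of the series, of which 55850 passed the limits on genes and mitochondrial UMIs. The 4129 Cd4 cells that lacked Gzmk, Ccl5 or both are called other Cd4 cells, and the 6961 cells with Cd8a or Cd8b1, Gzmk and Ccl5 but without Cd4 are called Gzmk Ccl5 Cd8 cells.

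The Runx1::Runx1t1 group consisted of Runx1 Runx1t1/+; Mx1-Cre mice, in which the interferon-inducible Mx1 promoter drives Cre and with it the leukemia fusion gene and an mCherry reporter. The control group consisted of sex-matched littermates that carried the Runx1 Runx1t1/+ allele without Mx1-Cre, and the sample labels call them wild type. All mice were C57BL/6, had been given 5 mg/kg Poly(I:C), which mimics viral RNA and induces interferon, intraperitoneally every other day for 4 doses and were sacrificed 4 weeks later. T cells were enriched by removal of other cells, and live mCherry- CD3+ cells were sorted, so that cells carrying the active fusion reporter were not sampled. Each group had 2 pools, replicate 1 and replicate 2, of 2 mice each. Gene expression was read by droplet sequencing from the 5′ end of transcripts, and a second library of each pool gave the receptor chains (TCR) of its T cells. All tests compared pools, so their p-values measure the spread between pools of 2 mice, and cells were never counted as replicates. In every pair of values given for a group, replicate 1 precedes replicate 2.

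Cd4 T cells are mostly helper cells, which recognize peptides on MHC class II. Under long antigen exposure some of them take on a cytotoxic program under the transcription factor Eomes, in which granzymes are packed into granules and released with perforin onto target cells. Ccl5 is a chemokine stored and secreted by effector and memory T cells, and Gzmk is a granzyme typical of effector memory rather than terminally differentiated cells. Each T cell carries 1 rearranged TCR, whose α and β chains (TRA and TRB) join V and J segments through a random junction, the complementarity-determining region 3 (CDR3), so cells of 1 animal with the same pair of junctions are usually taken as descendants of 1 cell, a clone.

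The CDR3 sequences printed here are those of the clones that held most members. A clonotype was defined within a pool by the pair of 1 TRA and 1 TRB nucleotide sequence, those with most UMIs in a cell with several, so cells of 1 clone with 2 TRA chains can fall into 2 clonotypes. Clonotypes are numbered by their member cells, with F for Runx1::Runx1t1 and C for control pools followed by the replicate number, and the bases in capitals are those that differ from the sequence shared by most CDR3s with the same V and J segments, that is, the junction. F1.1 (TRAV14-2 with TRAJ9, TRBV10 with TRBJ1-1) held 116 members, F2.1 (TRAV19 with TRAJ57, TRBV3 with TRBJ1-2) 101, F2.2 (TRAV14D-1 with TRAJ15, TRBV10 with TRBJ2-5) 85, F1.2 (TRAV14D-3-DV8 with TRAJ57 and TRBJ2-7) 62, and F2.3 (TRAV12D-2 with TRAJ57, TRBV16 with TRBJ1-5) 47. From the control pools C1.1, 1 of 2 clonotypes with 3 members in replicate 1, and C2.1, with 4 members in replicate 2, are shown for comparison, and no clonotype there held more. C2.1 shared its TRB with C2.2, which held 3 members, and 2 of 4 and 3 of 3 of their members had 2 TRA chains.
F1.1 TRA: tgtgcagcaGtgggctacaaacttaccttc
F1.1 TRB: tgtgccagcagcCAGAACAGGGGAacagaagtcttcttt
F2.1 TRA: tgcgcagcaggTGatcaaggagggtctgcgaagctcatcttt
F2.1 TRB: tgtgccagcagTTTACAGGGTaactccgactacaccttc
F2.2 TRA: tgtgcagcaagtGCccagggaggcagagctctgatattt
F2.2 TRB: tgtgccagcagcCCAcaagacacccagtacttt
F1.2 TRA: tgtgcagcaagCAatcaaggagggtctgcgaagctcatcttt
F1.2 TRB: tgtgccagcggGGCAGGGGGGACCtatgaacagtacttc
F2.3 TRA: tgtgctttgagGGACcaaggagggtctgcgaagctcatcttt
F2.3 TRB: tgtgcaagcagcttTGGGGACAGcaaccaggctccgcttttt
C1.1 TRA: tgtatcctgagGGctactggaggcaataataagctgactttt
C1.1 TRB: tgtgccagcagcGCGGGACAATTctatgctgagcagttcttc
C2.1 TRA: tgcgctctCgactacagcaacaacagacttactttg
C2.1 TRB: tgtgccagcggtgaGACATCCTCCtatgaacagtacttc

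The pools were of like depth, with 102883449 and 100115383 UMIs in the Runx1::Runx1t1 pools and 90958101 and 99869646 UMIs in the control pools. The members themselves were not, because the control pools held few of them. The UMIs summed over members were 3918321 and 6383756 in the Runx1::Runx1t1 pools and 287027 and 567276 in the control pools, so levels in control members rest on far fewer molecules. A single member held a median of 5123.5 and 5689 UMIs in the Runx1::Runx1t1 pools and 4884.5 and 4798 UMIs in the control pools. Of the member barcodes, 80 of 1792 also occurred in another pool, but none of the 706 barcodes that carried a TCR pair in more than 1 pool had the same clonotype there.

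Runx1, the hematopoietic transcription factor whose gene is one partner of the fusion, cannot check the labels here, since mCherry- cells were sorted and both groups carry the allele. Its level, given like all levels here as CPM (UMIs of the gene per 1000000 UMIs of all cells of a class in a pool), was 111 and 114 in Runx1::Runx1t1 members and 195 and 162 in control members. The groups did not overlap and the Runx1::Runx1t1 pools were the lower ones, but the difference of -0.65 ± 0.14 (log2 ± SE) did not pass the test (edgeR quasi-likelihood test, Benjamini-Hochberg adjusted p = 0.0761). Runx1t1, the other partner, had 3 and 1 UMIs in the Runx1::Runx1t1 members and 0 and 1 UMI in the control members. In other Cd4 cells Runx1 was at 163 and 181 and 145 and 170.1 CPM. Members and other Cd4 cells differed in the difference between groups by -0.76 ± 0.17 (adjusted p = 0.0351 for the interaction). This call was lost without Runx1::Runx1t1 replicate 2, without control replicate 1 and without control replicate 2, at -0.70, -0.57 and -1.01.

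Members made up a larger part of the Cd4 compartment in both Runx1::Runx1t1 pools than in either control pool. Among Cd4 cells without Foxp3 they were 680 of 2053 cells, 33.1% (95% Wilson interval 31.1 to 35.2), in Runx1::Runx1t1 replicate 1 and 973 of 1979, 49.2% (47.0 to 51.4), in replicate 2. In the control pools they were 48 of 993 cells, 4.83% (3.67 to 6.35), and 91 of 896, 10.2% (8.35 to 12.3). The intervals cover counting error only. The means were 41.1% ± 11.3 (SD, n = 2) and 7.495% ± 3.76 (SD, n = 2), a difference of 33.6 percentage points and a ratio of 5.49, with no overlap between the groups. The two-sided exact permutation test over 2 against 2 pools gave p = 0.33, the smallest it can give.

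The share depends on how Gzmk and Ccl5 UMIs are caught, and Ccl5 was also found in cells that should not make it. Among B cell or progenitor barcodes without Cd3 UMIs, 51.1% and 61.1% in the Runx1::Runx1t1 pools and 32.5% and 34.5% in the control pools held a Ccl5 UMI, while Gzmk was in 0.866% and 2.86% and in 0 and 0. Both together were in 1 of 231 and 4 of 175 of these barcodes in the Runx1::Runx1t1 pools. They were in 0 of 117 and 0 of 333 in the control pools, which allows shares of up to 2.56% and 0.901%. With every cell thinned to 2000 UMIs, the shares of members were 29.7% and 37.7% against 2.43% and 5.58%. With Gzmk alone as the condition, an alternative chosen after seeing the data, they were 33.7% and 49.5% against 6.75% and 11.6%. The order of the groups held under both. Cd4 cells with Gzmk and no Ccl5 numbered 11 and 6 in the Runx1::Runx1t1 pools and 19 and 13 in the control pools, so the second alternative could change little. Counting each clonotype once per pool left 19.99% and 31.9% against 5.07% and 9.83%, a difference of 18.5 points. Cells without a TRA and TRB pair were all kept in this count. Of its 299 and 438 Runx1::Runx1t1 members, 179 and 208 stood for clonotypes, and of its 43 and 82 control members 37 and 65. Among other Cd4 cells the clonotypes numbered 979 and 696 against 620 and 601, and a share over clonotypes alone was not calculated.

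The same order of pools was seen in the other lineage. Among Cd8 cells the share with Gzmk and Ccl5 was 26.0% and 47.2% in the Runx1::Runx1t1 pools and 8.58% and 15.1% in the control pools. Cd4 cells with Ccl5 but no Gzmk were 48.0% and 39.6% against 48.1% and 48.4%, and Cd4 cells with neither gene were 18.3% and 10.9% against 45.1% and 40.0%. Regulatory T cells, marked by a Foxp3 UMI, were 23.1% and 19.8% of all Cd4 cells in the Runx1::Runx1t1 pools and 19.1% and 20.5% in the control pools, which overlap (exact permutation p = 0.667).

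**Figure D1:**
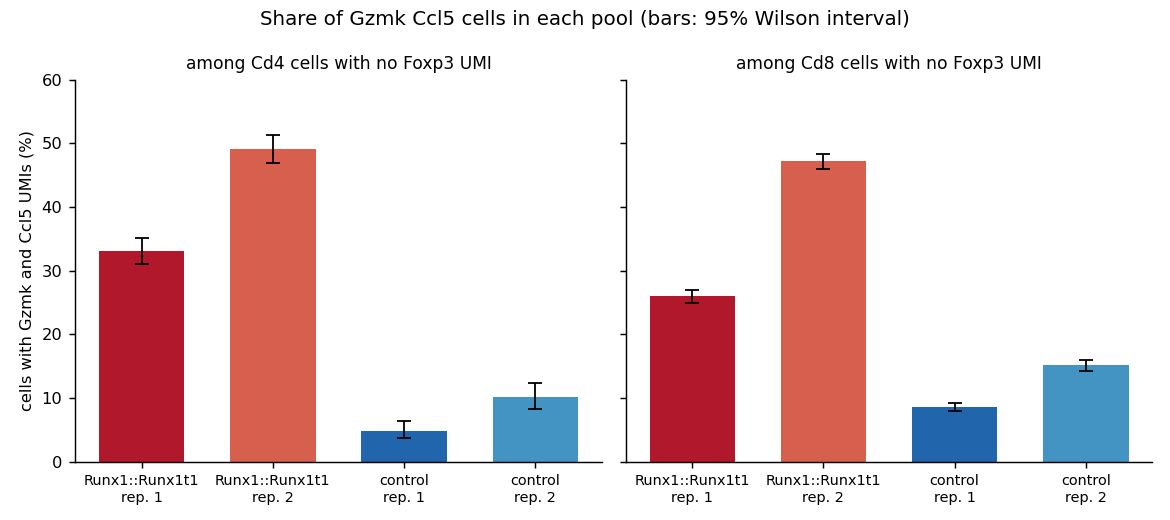
Bars show the percentage of cells with Gzmk and Ccl5 UMIs among Cd4 cells without Foxp3 and among Cd8 cells in each of the 4 pools, with 95% Wilson intervals. Both Runx1::Runx1t1 pools lie above both control pools in either lineage, at 33.1% and 49.2% against 4.83% and 10.2% for Cd4 cells.

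Since members were chosen on Gzmk and Ccl5, their levels are a description. Runx1::Runx1t1 members held a median of 4 and 4 Gzmk UMIs and 108 and 101 Ccl5 UMIs per cell, and control members 1 and 2 Gzmk UMIs and 37.5 and 24 Ccl5 UMIs. A single Gzmk UMI placed 18.1% and 11.7% of the Runx1::Runx1t1 members and 56.3% and 49.5% of the control members in the class. Control members therefore lie closer to the threshold. Eomes, which took no part in the choice of cells, was at 22.8 and 30.5 CPM in the Runx1::Runx1t1 pools and 30.8 and 9.27 CPM in the control pools just outside it, in Cd4 cells with Ccl5 and no Gzmk. Just inside, in cells with 1 Gzmk UMI, Eomes was at 113 and 233 CPM against 60.8 and 31.7 CPM, and with 4 or more Gzmk UMIs at 324 and 379 CPM against 157 and 131 CPM.

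Members of the Runx1::Runx1t1 pools belonged to large clones, whereas members of the control pools mostly did not. A TRA and TRB pair was read in 560 and 743 Runx1::Runx1t1 members and in 42 and 74 control members. Clonotypes of at least 2 cells held 474 of 560 (84.6%, 81.4 to 87.4) and 624 of 743 (84.0%, 81.2 to 86.4) of the Runx1::Runx1t1 members. They held 20 of 42 (47.6%, 33.4 to 62.3) and 30 of 74 (40.5%, 30.1 to 51.9) of the control members. The groups did not overlap, and their means were 84.3% ± 0.466 and 44.1% ± 5.01 (SD, n = 2), with a difference of 40.2 points (two-sided exact permutation p = 0.33, the smallest possible).

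Clones of at least 10 cells separated the groups further, with 63.6% and 61.1% of Runx1::Runx1t1 members against 9.52% and 4.05% of control members. Among other Cd4 cells such clones held 7.19% and 5.47% against 8.68% and 2.29%, and the groups overlapped. Members exceeded other Cd4 cells in the share within clonotypes of at least 2 cells by 56.1 and 63.8 points in the Runx1::Runx1t1 pools and by 18.1 and 23.7 points in the control pools. The direction was the same in 4 of 4 pools, with a mean of 40.4 points (two-sided exact paired permutation p = 0.13, the smallest that 4 pairs allow). Gzmk Ccl5 Cd8 cells were in clonotypes of at least 10 cells in 43.9% and 75.4% of cells in the Runx1::Runx1t1 pools and in 6.71% and 18.3% in the control pools.

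Clonotypes were fewer per cell among members of the Runx1::Runx1t1 pools. There were 179 and 208 clonotypes among the paired members, against 37 and 65 in the control pools. Drawn down to 42 cells, the number in the smallest pool, the expected number of clonotypes was 25.3 and 27.0 against 37 and 38.6. The largest clonotype held 20.7% and 13.6% of paired members, and the 5 largest held 43.8% and 38.1%. In Runx1::Runx1t1 replicate 2 the Gzmk Ccl5 Cd8 cells were more concentrated than the members, with 20.8 clonotypes expected among 42 cells, while in replicate 1 they were less so, with 34.2. No order between the lineages held in both pools.

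**Figure D2:**
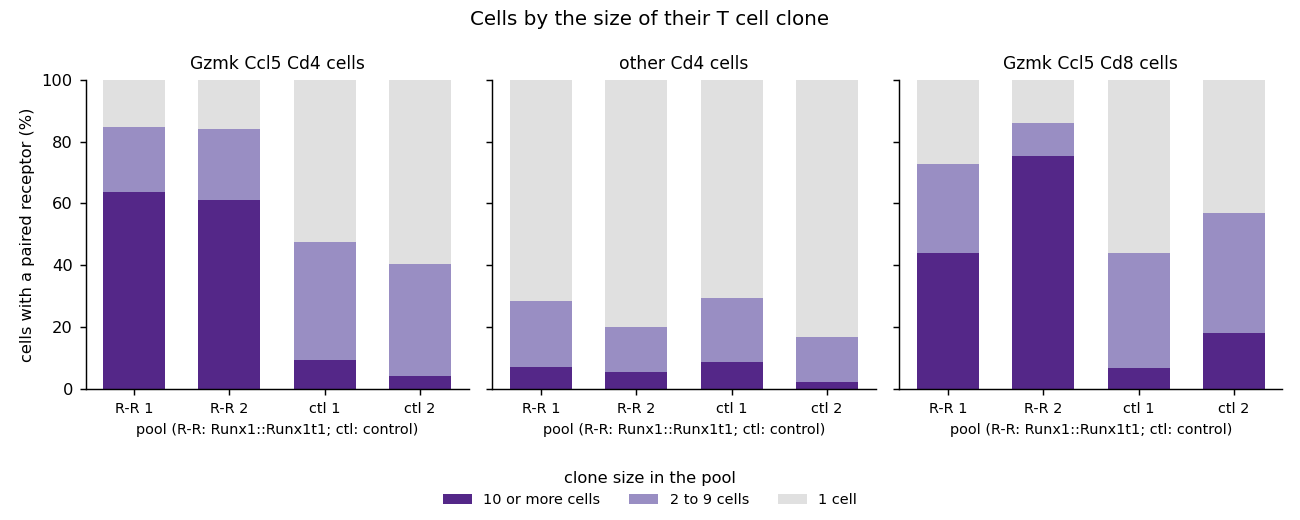
Stacked bars give the percentage of cells with a TRA and TRB pair that belong to clonotypes of 1 cell, of 2 to 9 cells and of 10 or more cells, for members, other Cd4 cells and Gzmk Ccl5 Cd8 cells in each pool (R-R, Runx1::Runx1t1; ctl, control). The part in clonotypes of 10 or more cells is 63.6% and 61.1% of members in the Runx1::Runx1t1 pools and 9.52% and 4.05% in the control pools.

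The gate on transcripts misses cells of the same clones. The 12 clonotypes with at least 10 members in Runx1::Runx1t1 replicate 1 held 446 cells in all, of which 329 were members, 15 were Cd4 cells with Ccl5 and no Gzmk, and 60 had neither Cd4 nor Cd8 UMIs. Of those 60 cells, 57 held both Gzmk and Ccl5. The 15 such clonotypes of replicate 2 held 608 cells, with 434 members, 29 cells with Ccl5 and no Gzmk, and 83 without a coreceptor UMI, of which 78 held Gzmk and Ccl5. Cells without a coreceptor UMI were shallower, with a median of 4487.5 UMIs against 4933 for members of the same clones in replicate 1 and 4374 against 5488.5 in replicate 2. Cd8-gated cells of these clones numbered 6 and 7. Cells with UMIs of both coreceptors numbered 34 and 48. Since these clonotypes were picked for their members, the share of members in them is a description.

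Clonotypes made up mostly of members were found in the Runx1::Runx1t1 pools. Among clonotypes with at least 5 Cd4 cells, 14 of 32 and 23 of 30 in the Runx1::Runx1t1 pools had 80% or more members, against 0 of 11 and 0 of 3 in the control pools. No member was found in 6 of 32 and 1 of 30 such clonotypes against 7 of 11 and 0 of 3, and 12 and 6 against 4 and 3 lay in between. The highest percentage of members in such a clonotype of the control pools was 27.3% and 57.1%. C2.1 held 4 members among 9 cells and C1.1 held 3 among 14. Among members, with 489 clonotypes counted pool by pool, 2 clonotypes occurred in more than 1 pool. Among all kept cells 8 of 30202 clonotypes did, and the difference was not tested. F2.7 held 19 members and was also found in 1 member of control replicate 1, and F1.3 held 32 members and was also found in 1 member of Runx1::Runx1t1 replicate 2.

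Against other Cd4 cells of the same pools, members were higher in the cytotoxic program, in inhibitory receptors and in Eomes, and lower in naive and natural killer genes. With pools as blocks, the edgeR quasi-likelihood test with Benjamini-Hochberg adjustment called 1482 of 10914 genes (13.6%), of which 645 (5.91%) were higher and 837 (7.67%) lower in members, and the median log2 difference over all genes tested was 0.000713. Because the cells were picked by Gzmk and Ccl5, genes that go with them had to differ, and the adjusted p-values only place the classes on a scale. Eomes, Coch and Gcg had been named as markers with results of these data known, and their values here and in all later comparisons are likewise a description.

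Of the genes for cytotoxic granules and death ligands, 9 of 14 tested were higher in members and none lower, with a median log2 difference of 0.80. Nkg7, a granule protein needed for degranulation, was at 3472 and 3161 CPM in Runx1::Runx1t1 members and 1557 and 1158 CPM in control members, against 477 to 584 CPM in other Cd4 cells. All 4 member pools were above all 4 pools of other Cd4 cells (1.92 ± 0.24, adjusted p = 5.50e-04). Perforin, Prf1, was at 48.5 and 60.6 and 17.4 and 17.6 CPM against 5.42 to 10.04 CPM (2.41 ± 0.29, adjusted p = 4.49e-04), and granzyme B, Gzmb, at 128 and 121 and 55.7 and 29.97 CPM against 7.38 to 48.4 CPM (1.65 ± 0.21, adjusted p = 5.94e-04). Perforin did not overlap between the classes, while for Gzmb the lowest member pool, control replicate 2, lay within the range of the other cells. Granzyme A, the main granzyme of many killer cells, was at 34.2 and 12.1 and 97.6 and 37.0 CPM against 11.5 to 34.4 CPM and overlapped.

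Ccl4, a chemokine for monocytes and T cells, was at 1643 and 1517 CPM in Runx1::Runx1t1 and 491 and 179.8 CPM in control members, against 49.7 to 171 CPM in other Cd4 cells (2.90 ± 0.25, adjusted p = 6.91e-05). It did not overlap between the classes, though 94 of the 141 Ccl4 UMIs of control replicate 1 lay in 1 cell. Of the 22 homing genes, 5 were higher and 10 lower, and of the 6 chemokines 2 were higher and 2 lower.

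Of 12 inhibitory receptors 8 were higher in members and 1 lower, with a median log2 difference of 0.84. Lag3, a receptor for MHC class II, was at 510.4 and 392 CPM in Runx1::Runx1t1 and 149.8 and 44.1 CPM in control members against 19.6 to 67.3 CPM (2.54 ± 0.32, adjusted p = 6.13e-04). Pdcd1, which encodes PD-1, was at 209 and 149.8 and 69.7 and 54.6 CPM against 32.0 to 62.4 CPM (1.78 ± 0.28, adjusted p = 0.00230). In both genes the Runx1::Runx1t1 members stood above all other Cd4 pools, while control replicate 2 was within their range. Havcr2, which encodes TIM-3, was at 42.6 and 33.4 and 3.48 and 3.53 CPM against 0.399 to 3.56 CPM, with control members at the upper end of the other cells.

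Transcription factors of effector cells followed, with 11 of 21 higher and 2 lower. Eomes was at 261 and 347 and 90.6 and 58.2 CPM against 14.1 to 32.3 CPM, without overlap (3.01 ± 0.23, adjusted p = 2.56e-05). Prdm1, the gene of the terminal effector factor Blimp-1, was at 87.0 and 86.8 and 80.1 and 17.6 CPM against 10.3 to 16.4 CPM (2.24 ± 0.18, adjusted p = 3.80e-05). Runx3, the factor of cytotoxic lineage cells, was at 230.5 and 247 and 167 and 129 CPM against 83.4 to 99.8 CPM (1.07 ± 0.14, adjusted p = 8.75e-04). All 3 genes were higher in every member pool than in any pool of other Cd4 cells.

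Genes of naive and central memory cells moved the other way, with 14 of 16 lower, none higher and a median log2 difference of −1.31. Ccr7, the receptor that guides naive cells into lymph nodes, was at 40.8 and 29.1 and 80.1 and 24.7 CPM in members against 252 to 550.2 CPM in other Cd4 cells (-3.37 ± 0.29, adjusted p = 6.25e-05). Tcf7, the factor of naive and self-renewing T cells, was at 146 and 146 and 383 and 298 CPM against 367 to 465 CPM (-1.06 ± 0.18, adjusted p = 0.00326). Ccr7 did not overlap between the classes, and in Tcf7 the highest member pool, control replicate 1, was at the lower end of the other cells.

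Of 24 helper cytokines and receptors 6 were higher in members and 9 lower, with a median log2 difference of −0.38. Among the higher ones interferon γ, Ifng, was at 286 and 268 and 459.9 and 363 CPM against 153 to 206 CPM (0.86 ± 0.13, adjusted p = 0.00196), and Il10, which encodes an inhibitory cytokine, at 96.0 and 89.4 and 69.7 and 38.8 CPM against 8.60 to 22.5 CPM (2.25 ± 0.17, adjusted p = 2.81e-05). Both were higher in every member pool than in any pool of other Cd4 cells, though 9 of the 20 and 10 of the 22 Il10 UMIs of the control members lay in 1 cell of each pool. Of 8 type 2 and type 17 genes 7 were lower and none higher, with a median log2 difference of −2.68, Il17a among them at 4.08 and 0.313 and 0 and 1.76 CPM against 18.2 to 30.1 CPM (-3.81, adjusted p = 8.10e-04). Of 11 regulatory genes 1 was higher and 5 lower, and of 15 cell cycle genes 2 were higher.

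Natural killer receptors were lower in 10 of 17 cases and higher in 1, with a median log2 difference of −1.21. The higher one, Klrg1, did not pass without Runx1::Runx1t1 replicate 1, without Runx1::Runx1t1 replicate 2 or without control replicate 1, at 1.07, 0.29 and 0.90. With Foxp3 cells added to the other Cd4 cells it turned to -1.85. Klrk1, the gene of the activating receptor NKG2D, was at 13.5 and 6.11 CPM in Runx1::Runx1t1 and 105 and 40.5 CPM in control members, against 39.4 to 119 CPM in other Cd4 cells, so that the control members lay within the range of the other cells. This part of the result depends on which other Cd4 cells are used. Against Cd4 cells with neither Gzmk nor Ccl5, Klrk1 and Klrb1c came out at 0.00033 and 0.51 on the log2 scale. Other Cd4 cells also held 100 and 54 cells in the Runx1::Runx1t1 pools and 84 and 101 in the control pools with the TRAV11 and TRAJ18 segments of invariant natural killer T cells, and members held 0 and 1 and 2 and 1. With these cells left out, an alternative chosen after seeing the data, Klrk1 was at −1.30 in members relative to other Cd4 cells (adjusted p = 0.00328).

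The genes with the highest differences, named by a fixed rule of size, included surface receptors that are unusual in T cells. Ret, a receptor tyrosine kinase, was at 3.32 and 3.92 and 6.97 and 1.76 CPM against 0 to 0.478 CPM, and Rtkn, a signalling adaptor gene, at 9.95 and 11.7 and 6.97 and 7.05 CPM against 0 to 0.862 CPM. Esm1, the gene of a secreted proteoglycan, was at 51.8 and 90.5 and 17.4 and 14.1 CPM against 2.88 to 4.44 CPM (3.64 ± 0.33, adjusted p = 8.24e-05). Ret, Rtkn and Esm1 were above the other Cd4 cells in 4 of 4 pools, and Ret passed at 5.07 ± 0.91 (adjusted p = 0.00436) but not without Runx1::Runx1t1 replicate 2, at 4.62. Adrb1, the β1-adrenergic receptor, was at 21.9 and 24.9 and 3.48 and 8.81 CPM against 0.399 to 3.22 CPM (3.02 ± 0.32, adjusted p = 2.27e-04). Adgrg1, which encodes the adhesion receptor GPR56 of cytotoxic lymphocytes, was at 50.3 and 37.0 and 13.9 and 68.7 CPM against 4.40 to 15.1 CPM (2.69 ± 0.26, adjusted p = 1.30e-04). In control replicate 2, 22 of the 39 Adgrg1 UMIs came from 1 cell, and control replicate 1 was within the range of other Cd4 cells.

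On the low side by the same rule, Pdlim4, which encodes a cytoskeletal adaptor, was at 1.28 and 0.940 and 0 and 0 CPM in members against 11.4 to 36.4 CPM in other Cd4 cells, without overlap (-4.93 ± 0.30, adjusted p = 6.41e-06). Edn3, Emilin2 and Stfa3 had no UMI in any member of the 4 pools, and in other Cd4 cells they were at 0.739 to 2.39, 0.508 to 2.71 and 0.370 to 9.97 CPM. Without Runx1::Runx1t1 replicate 1, Edn3 and Stfa3 did not pass, at fitted values of -6.03 and -5.39. A count of 0 in the control members allows up to 3.51 CPM over both pools, so for Edn3 and Emilin2 the levels of other Cd4 cells could not be told from 0 there.

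**Figure D3:**
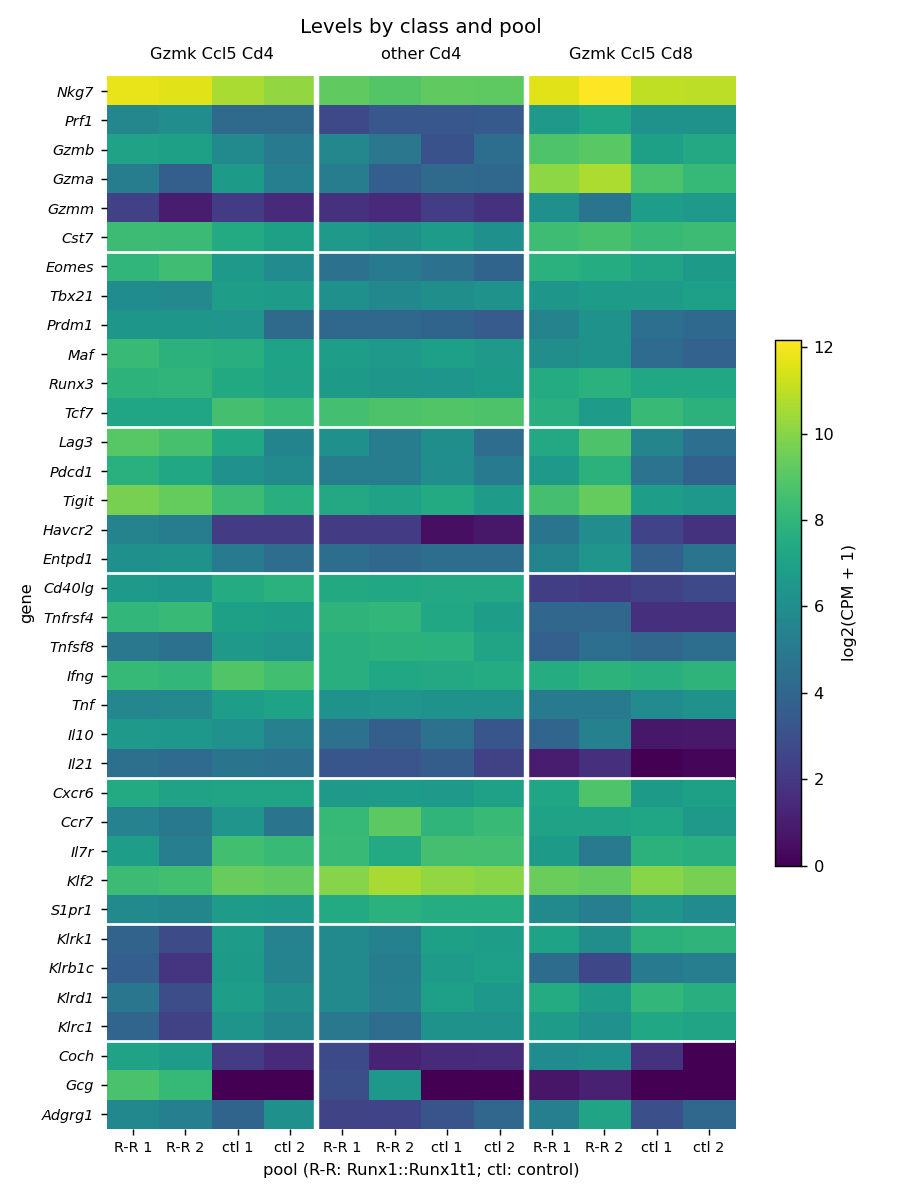
The heat map gives log2(CPM + 1) of genes grouped by role in members, other Cd4 cells and Gzmk Ccl5 Cd8 cells, with 1 column per pool. Nkg7, Eomes and Lag3 are high in Runx1::Runx1t1 members, Ccr7 is high in other Cd4 cells, and Coch is seen in Runx1::Runx1t1 members and Cd8 cells at 126 and 105 and 60.4 and 67.6 CPM.

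Within members, the Runx1::Runx1t1 group differed from the control group in 138 of 9315 genes (1.48%), with 66 (0.709%) higher and 72 (0.773%) lower (edgeR quasi-likelihood test, 2 against 2 pools, Benjamini-Hochberg adjusted p under 0.05). At an unadjusted p under 0.05 there were 1293 genes (13.9%), and the median log2 difference over all genes was −0.01. Members shared the gate, so this comparison asks how cells already selected for Gzmk and Ccl5 differed between the genotypes. In other Cd4 cells the same comparison called 47 of 10710 genes (0.439%), 31 (0.289%) higher and 16 (0.149%) lower. With library totals in place of normalization factors, 40% of the calls there were higher instead of 66.0%. The difference between the groups was not the same in members and other Cd4 cells, as an interaction of class and group, in 170 of 10914 genes (1.56%). Of these, 61 (0.559%) were positive and 109 (0.999%) negative.

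Eomes was higher in Runx1::Runx1t1 members than in control members by 2.11 ± 0.23 on the log2 scale (adjusted p = 0.00399), at 261 and 347 against 90.6 and 58.2 CPM. It was seen in 63.7% and 76.8% of Runx1::Runx1t1 members and in 29.2% and 22.0% of control members. After thinning to 2000 UMIs per cell these shares were 37.5% and 49.2% against 16.7% and 12.1%, and the groups stayed apart. In other Cd4 cells Eomes was at 22.9 and 32.3 and 23.3 and 14.1 CPM. The classes differed in the difference between groups by 1.46 ± 0.21 (adjusted p = 0.00126 for the interaction). Eomes had likewise been named as a marker with results of these data known, so its p-values only place the groups on a scale.

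Of 13 granule genes tested 4 were higher in Runx1::Runx1t1 members, 1 was lower, and the median log2 difference was 0.60. Nkg7 was at 3472 and 3161 against 1557 and 1158 CPM (1.30 ± 0.14, adjusted p = 0.00399), Prf1 at 48.5 and 60.6 against 17.4 and 17.6 CPM (1.64 ± 0.30, adjusted p = 0.0302), and Gzmb at 128 and 121 against 55.7 and 29.97 CPM (1.66 ± 0.23, adjusted p = 0.0114). Cst7, which encodes the granule protease inhibitor cystatin F, was the fourth, at 328 and 310.2 against 171 and 122 CPM. In these 4 genes both Runx1::Runx1t1 pools were above both control pools. Lamp1, a lysosomal membrane protein also used as a marker of degranulation, was lower, at 68.9 and 76.4 against 115 and 145 CPM (-0.87 ± 0.17, adjusted p = 0.0385).

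Inhibitory receptors rose in 5 of 11 cases and fell in none, with a median log2 difference of 0.97. Lag3 was at 510.4 and 392 CPM in Runx1::Runx1t1 members and 149.8 and 44.1 CPM in control members (2.41 ± 0.37, adjusted p = 0.0148), and 16 of the 43 UMIs of control replicate 1 came from 1 cell. Pdcd1 was at 209 and 149.8 against 69.7 and 54.6 CPM (1.56 ± 0.24, adjusted p = 0.0164), and Tigit, a receptor for the poliovirus receptor family, at 820.0 and 624 against 321 and 204 CPM (1.51 ± 0.21, adjusted p = 0.0113). Havcr2 was at 42.6 and 33.4 against 3.48 and 3.53 CPM and Entpd1, the gene of the ectonucleotidase CD39, at 69.2 and 73.6 against 31.4 and 19.4 CPM. All 5 genes were higher in both Runx1::Runx1t1 pools than in either control pool. In other Cd4 cells none of the 11 inhibitory receptors tested passed, and the interaction passed for 5 of 12, among them Lag3 (2.02 ± 0.24, adjusted p = 2.19e-04) and Pdcd1 (1.90 ± 0.25, adjusted p = 4.86e-04).

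Genes of less differentiated cells were lower in Runx1::Runx1t1 members in 4 of 16 cases and higher in none, with a median log2 difference of −0.60. Tcf7 was at 146 and 146 against 383 and 298 CPM (-1.20 ± 0.15, adjusted p = 0.00623), Il7r, the receptor of the survival cytokine interleukin 7, at 109 and 35.6 against 359 and 308 CPM (-2.23 ± 0.43, adjusted p = 0.0385), and Klf2, a factor of quiescence and recirculation, at 323 and 361 against 648 and 585 CPM (-0.84 ± 0.13, adjusted p = 0.0148). Myb was the fourth, at 10.2 and 12.5 against 38.3 and 38.8 CPM. In all 4 genes the Runx1::Runx1t1 pools were the lower ones.

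Of 11 costimulatory genes 1 was higher and 3 lower in Runx1::Runx1t1 members, with a median log2 difference of −0.25, and of 21 helper cytokines and receptors 1 was higher and 3 lower, with a median of −0.13. Tnfrsf4, which encodes the costimulatory receptor OX40, was higher at 270.0 and 307 against 122 and 109 CPM (1.33 ± 0.16, adjusted p = 0.00587). Cd40lg, whose product licenses dendritic and B cells, was lower at 94.7 and 82.7 against 178 and 219 CPM (-1.19 ± 0.17, adjusted p = 0.0114), and Tnfsf8, the ligand of CD30, at 28.1 and 22.7 against 94.1 and 79.3 CPM (-1.76 ± 0.22, adjusted p = 0.00740). Groups did not overlap in any of the 3. Tbx21, the gene of the type 1 factor T-bet, was lower at 59.5 and 52.3 against 111 and 106 CPM (-0.96 ± 0.17, adjusted p = 0.0251), as was Tnf at 49.5 and 52.5 against 111 and 132 CPM (-1.29 ± 0.16, adjusted p = 0.00740). Ifng was at 286 and 268 against 459.9 and 363 CPM and did not pass (-0.55 ± 0.14, adjusted p = 0.123). Members of the Runx1::Runx1t1 pools thus had more Eomes and less Tbx21 than control members.

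Of 4 chemokine genes tested 1 was higher and 1 lower in Runx1::Runx1t1 members, with a median log2 difference of 0.17. Ccl4 was at 1643 and 1517 against 491 and 179.8 CPM (2.33 ± 0.32, adjusted p = 0.0113), while Xcl1, a chemokine for cross-presenting dendritic cells, was lower at 181 and 175 against 411 and 647 CPM (-1.61 ± 0.20, adjusted p = 0.00740). Neither gene overlapped between the groups. Of 15 cell cycle genes and of 9 regulatory genes none passed by edgeR, and Mki67, a marker of proliferating cells, was at 39.6 and 69.2 and 20.9 and 52.9 CPM and overlapped. Of 13 interferon response genes 1 was lower and none higher, 4 weeks after induction.

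Coch and Gcg, which had been named as markers, were absent or near absent from control members. Coch encodes cochlin, a secreted protein known from the inner ear, and lies on GRCm38 at chr12:51593341-51605771 on the forward strand. It was at 126 and 105 CPM in Runx1::Runx1t1 members and 3.48 and 1.76 CPM in control members, where it rested on 1 and 1 UMI. It was seen in 19.6% and 18.8% of Runx1::Runx1t1 members against 2.08% and 1.10% of control members, and after thinning in 13.1% and 11.5% against 0 and 0. Other Cd4 cells held it in 1.02% and 0.497% of cells in the Runx1::Runx1t1 pools, and B cell or progenitor barcodes in none. The difference was 5.58 ± 0.42 in members (adjusted p = 7.21e-04) and the interaction with class was 4.62 ± 1.001 (adjusted p = 0.0264). The latter did not pass without control replicate 1 or without control replicate 2, at 5.05 and 4.05. Since Coch had been named as a marker with results of these data known, these p-values only place the groups on a scale.

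Gcg, which encodes the precursor of glucagon and of the incretin GLP-1, lies at chr2:62474530-62483650 on the reverse strand. It was at 415 and 284 CPM in Runx1::Runx1t1 members, with 1628 and 1816 UMIs, and had no UMI in the 48 and 91 control members, which allows up to 6.25% and 3.30% of cells with a Gcg UMI at this depth. Against a floor of 3 counts over both control pools, 3.51 CPM, its level in Runx1::Runx1t1 members was at least 81.0-fold higher. It was seen in 10.3% and 12.2% of Runx1::Runx1t1 members and after thinning in 6.82% and 9.12%. Its UMIs were concentrated, since the 5 cells with most of them held 56.4% of all in replicate 1 and 28.5% in replicate 2. Other Cd4 cells held it at 6.53 and 89.6 CPM in the Runx1::Runx1t1 pools, where 386 of the 529 UMIs of replicate 2 lay in 1 cell, and 0 in the control pools, and Gzmk Ccl5 Cd8 cells at 0.658 and 1.14 CPM and 0.

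By the rule of size, Spp1, which encodes osteopontin, followed at 332 and 203 against 24.4 and 3.53 CPM (4.63 ± 0.51, adjusted p = 0.00399), and Dapk2, a calcium-dependent death-associated kinase, at 35.7 and 33.1 against 3.48 and 1.76 CPM (3.84 ± 0.51, adjusted p = 0.00989). The groups did not overlap in either gene. Among the lowest were Penk, the gene of the enkephalin precursor, at 47.0 and 56.5 against 390.2 and 189 CPM (-2.39 ± 0.26, adjusted p = 0.00399), where 110 of the 112 UMIs of control replicate 1 lay in 1 cell. Sox4, a factor of immature lymphocytes, was at 4.08 and 5.64 against 41.8 and 51.1 CPM (-3.25 ± 0.35, adjusted p = 0.00399), and Klrk1 at 13.5 and 6.11 against 105 and 40.5 CPM (-2.80 ± 0.50, adjusted p = 0.0283).

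Genes of other cells moved with the pools. Cpa3, a mast cell and progenitor protease, was at 53.8 and 54.2 CPM in Runx1::Runx1t1 members and had no UMI in control members, which makes it at least 15.3-fold higher in the former against a floor of 3 counts over both control pools. It was likewise at 77.9 and 30.3 CPM in other Cd4 cells and 63.8 and 80.6 CPM in Gzmk Ccl5 Cd8 cells of the Runx1::Runx1t1 pools, so members did not stand apart in it, and 119 of its 211 UMIs in replicate 1 members were in 1 cell. Prtn3, a protease of myeloid progenitors, was at 0.255 and 2.04 against 10.5 and 77.6 CPM, with 35 of the 44 UMIs of control replicate 2 in 1 cell. Over whole marker lists, the summed level in members was 171 and 149 CPM in the Runx1::Runx1t1 pools and 199 and 289 CPM in the control pools for 11 myeloid genes, led by Cst3. For 8 B cell genes, with Igll1 at 0, it was 15.6 and 2.04 against 10.5 and 3.53 CPM, and for 7 erythroid genes 11.7 and 19.6 against 13.9 and 59.9 CPM. For 6 progenitor genes it was 65.8 and 68.8 against 3.48 and 79.3 CPM, led by Cpa3 in the Runx1::Runx1t1 pools only. The 79.3 CPM of control replicate 2 rested on 45 UMIs. Of the Cd34 UMIs, 21 of 24 in members of that pool and 21 of 29 in those of Runx1::Runx1t1 replicate 1 lay in 1 cell. For 6 γδ T cell genes, led by Trdc, it was 9.95 and 27.9 against 52.3 and 37.0 CPM, and for 6 natural killer T cell genes, led by Slamf6, 103 and 104 against 251 and 166 CPM. Scrublet marked 2.65% and 1.13% of the Runx1::Runx1t1 members and 6.25% and 4.40% of the control members as doublets. With doublets and cells with 2 TRB chains left out, 133 genes passed between the groups in members, of which 117 were among the 138. The part of other cell types in the differences between groups was not tested.

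Fewer genes passed between the groups when clonotypes were reduced to 1 cell or the gate was stricter. With each clonotype counted by 1 cell and all cells without a TRA and TRB pair kept, 33 genes passed in place of 138. Large clones could therefore still count more than once. Of the 46 genes that the rule, the marker list and the text name, 14 still passed, 32 did not and none turned. Coch, Eomes, Gzmb, Lag3, Nkg7, Pdcd1 and Tigit were among those that passed, at 5.12, 1.88, 1.81, 2.21, 0.99, 1.19 and 1.26 on the log2 scale. Tcf7, Prf1, Cd40lg and Xcl1 were among those that did not, at −0.80, 1.57, −0.71 and −0.45. With at least 2 Gzmk and 2 Ccl5 UMIs required, 44 genes passed in all, and of the 46 named genes 19 still passed, 25 did not and 2, Prtn3 and Sox4, were not tested. Coch, Eomes, Gzmb, Nkg7, Tcf7, Tigit, Tnfrsf4 and Xcl1 were among those that passed. Lag3 (1.93, adjusted p = 0.0515), Pdcd1, Prf1, Havcr2, Entpd1, Ccl4, Cd40lg, Tnfsf8, Tnf, Tbx21, Klrk1, Myb, Lamp1 and Dapk2 were among those that did not. Single pools counted as well. Without control replicate 2, 17 of the 46 genes no longer passed, among them Pdcd1 at 1.43 (adjusted p = 0.0627), Prf1 at 1.73, Havcr2 at 3.49, Entpd1 at 1.26, Il7r at −2.28, Tbx21 at −0.93, Myb at −1.66 and Lamp1 at −0.58, all in the same direction. Klf2, Myb and Lamp1 also lost the call without Runx1::Runx1t1 replicate 1, at −0.79, −1.65 and −0.82, and Tbx21 without replicate 2, at −0.87.

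Against Gzmk Ccl5 Cd8 cells of the same pools, members differed in 577 of 10840 genes (5.32%), with 289 (2.67%) higher and 288 (2.66%) lower and a median log2 difference of −0.01 over all genes (edgeR quasi-likelihood test blocked by pool, Benjamini-Hochberg adjustment). With library totals in place of normalization factors 67.2% of the calls were higher instead of 50.1%. Both classes passed the same limits on Gzmk and Ccl5, and Cd4, Cd8a and Cd8b1 only describe how they were chosen. In this comparison members had fewer of the classical killer granzymes, more costimulatory and follicular helper genes, and fewer natural killer receptors.

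Of 14 granule genes 5 were lower in members and 1 higher, with a median log2 difference of −0.60. Gzma was at 34.2 and 12.1 CPM in Runx1::Runx1t1 and 97.6 and 37.0 CPM in control members, against 1095 and 1646 and 424 and 282 CPM in Cd8 cells (-5.19 ± 0.62, adjusted p = 8.61e-04). Gzmm, another granzyme, was at 4.08 and 0.940 and 3.48 and 1.76 CPM against 68.4 and 25.9 and 113 and 94.3 CPM (-4.57 ± 0.20, adjusted p = 1.68e-06), and Gzmb at 128 and 121 and 55.7 and 29.97 CPM against 457 and 527 and 119 and 161 CPM (-2.06 ± 0.13, adjusted p = 2.18e-05). In each of the 3 granzymes and in each of the 4 pools members were below the Cd8 cells. Nkg7 was at 3472 and 3161 and 1557 and 1158 CPM against 3120.0 and 4622 and 2084 and 1972 CPM, without a call. Of 17 natural killer receptors 8 were lower and none higher, with a median log2 difference of −1.34, and Klrk1 was at 13.5 and 6.11 and 105 and 40.5 CPM against 134 and 62.8 and 222 and 241 CPM (-2.88 ± 0.26, adjusted p = 1.88e-04).

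Costimulatory genes were higher in 6 of 11 cases and lower in 1, with a median log2 difference of 0.98. Cd40lg was at 94.7 and 82.7 and 178 and 219 CPM against 3.25 to 5.40 CPM (4.81 ± 0.14, adjusted p = 8.71e-08), and Tnfrsf4 at 270.0 and 307 and 122 and 109 CPM against 2.15 to 15.4 CPM (4.44 ± 0.20, adjusted p = 1.87e-06). Neither overlapped between the classes. Zbtb7b, the gene of ThPOK, which fixes the Cd4 helper lineage, was at 24.8 and 26.6 and 38.3 and 38.8 CPM against 3.11 to 7.59 CPM (2.70 ± 0.21, adjusted p = 6.99e-05), also without overlap.

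Follicular helper genes were higher in 5 of 8 cases and lower in none, with a median log2 difference of 1.34. Il21, whose product helps B cells and Cd8 cells, was at 21.7 and 18.3 and 24.4 and 22.9 CPM against 0 to 2.27 CPM (4.14 ± 0.53, adjusted p = 0.00130), and Cxcr5, the receptor for B cell follicles, at 41.6 and 56.5 and 24.4 and 10.6 CPM against 4.63 to 10.5 CPM (2.14 ± 0.26, adjusted p = 9.08e-04). Of 24 helper cytokines and receptors 8 were higher and 2 lower, Il10 among the former at 96.0 and 89.4 and 69.7 and 38.8 CPM against 14.7 and 40.2 and 0.717 and 0.772 CPM (2.32 ± 0.49, adjusted p = 0.0214). Maf, a factor that drives Il10 and Il21, was at 297 and 227 and 195 and 132 CPM against 13.4 to 73.7 CPM (2.27 ± 0.23, adjusted p = 3.12e-04). The call of Il10 was lost without replicate 1 of either group, at 2.30 and 2.07. Il21, Maf and Cxcr5 did not overlap between the classes, while Il10 did and was higher in members within each of the 4 pools.

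Eomes was at 261 and 347 CPM in members and 219 and 185 CPM in Cd8 cells of the Runx1::Runx1t1 pools and at 90.6 and 58.2 and 139 and 98.0 CPM in the control pools, so that members were higher in the former pools and lower in the latter, and no difference was called over 4 pools. Coch was in both lineages of the Runx1::Runx1t1 pools, in 19.6% and 18.8% of members and in 14.1% and 17.5% of Gzmk Ccl5 Cd8 cells, and was higher in members by 0.78 ± 0.17 (adjusted p = 0.0234), a call that was lost without Runx1::Runx1t1 replicate 1 or without control replicate 1, at 0.62 and 0.78. Gcg was seen in 0.218% and 0.687% of those Cd8 cells against 10.3% and 12.2% of members (8.34 on the log2 scale, adjusted p = 1.68e-06). Glp1r, which encodes the receptor of the incretin made from the Gcg product, was at 9.13 and 47.0 CPM in Cd8 cells of the Runx1::Runx1t1 pools and at 1.28 and 2.19 CPM in members (-4.07 ± 0.33, adjusted p = 7.94e-05). Gcg was thus higher in members and Glp1r in Cd8 cells of the same pools.

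**Figure D4:**
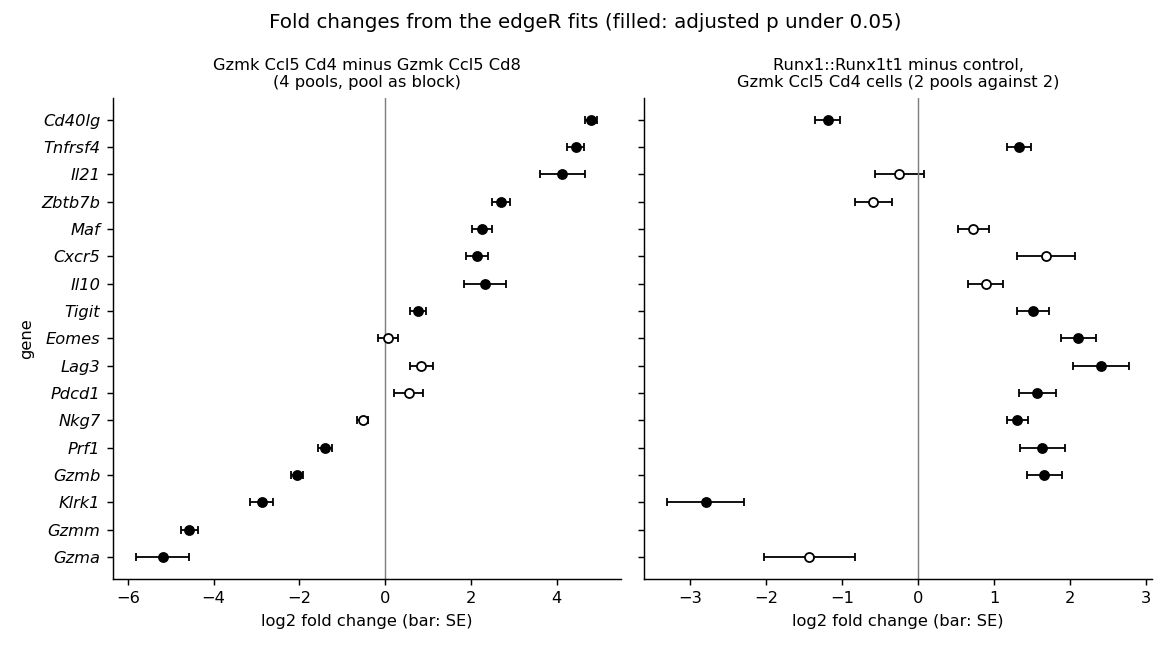
Points give log2 differences with SE bars from the edgeR quasi-likelihood fits, in the left panel for members minus Gzmk Ccl5 Cd8 cells and in the right panel for Runx1::Runx1t1 minus control members, and filled points have an adjusted p under 0.05. Of the 17 genes drawn, Cd40lg and Tnfrsf4 lie farthest right in the left panel at 4.81 and 4.44, Gzma lies at -5.19, and Gzmm was not tested between the groups.

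Clonotypes within the class were far from alike. Over the 27 clonotypes with at least 10 members, 12 in Runx1::Runx1t1 replicate 1 and 15 in replicate 2, Eomes was seen in 50% to 93.8% of a clone's members, with a median of 80%, and Nkg7 in 86.7% to 100%. Coch ranged from 0, in 13 clonotypes, to 72.3%, Gcg from 0, in 12 clonotypes, to 70.6%, and Lag3 from 0, in 1 clonotype, to 96.6%. Of the 27 clonotypes 6 shared their TRB with another, F2.2 with F2.11, F2.5 with F2.15 and F1.9 with F1.11, and most of their members had 2 TRA chains, so the 27 clonotypes had 24 different TRBs, of which 11 had no member with Coch, 9 none with Gcg and 1 none with Lag3. Eomes and Nkg7 were thus seen in all of these clonotypes, as were Tigit, Pdcd1, Ifng, Maf and Tbx21. Lag3 was seen in 26 of the 27, and the 1 without it held 11 members. Coch and Gcg were missing from many. These values describe 763 cells, and cells of 1 clonotype are not independent of each other.

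F1.1 and F2.1, the clonotypes with most members in their pools, held 57 of the 133 and 73 of the 183 members with a Coch UMI. In F1.1, 49.1% of 116 members held Coch, 27.6% Gcg, 96.6% Lag3, 85.3% Pdcd1 and 36.2% Il10. In F2.1, 72.3% of 101 members held Coch, 28.7% Gcg, 93.1% Lag3, 65.3% Pdcd1 and 47.5% Il10. F2.2, the second clonotype of replicate 2, whose TRB was in 102 members against 103 for that of F2.1, had 0 of 85 members with Coch or Gcg, 9.41% with Lag3 and 18.8% with Pdcd1, although 81.2% held Eomes. The clonotype with most Coch-positive members held 57.6% of those with a clonotype in replicate 1 and 63.5% in replicate 2.

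Some clones were singled out after their values were seen. F2.10 had Gcg in 12 of 17 members, the highest share of the 27 clonotypes, and its members held a median of 10114 UMIs. F2.12 had Lag3 in 0 of 11 members. F2.14, with the TRAV19, TRAJ57 and TRBV3 segments of F2.1 but TRBJ2-5, had Coch in 0 of 10 members, Lag3 in 10% and Cd40lg in 80%, against 13.9% with Cd40lg in F2.1. Clones with shared segments could therefore lie at opposite ends.

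**Figure D5:**
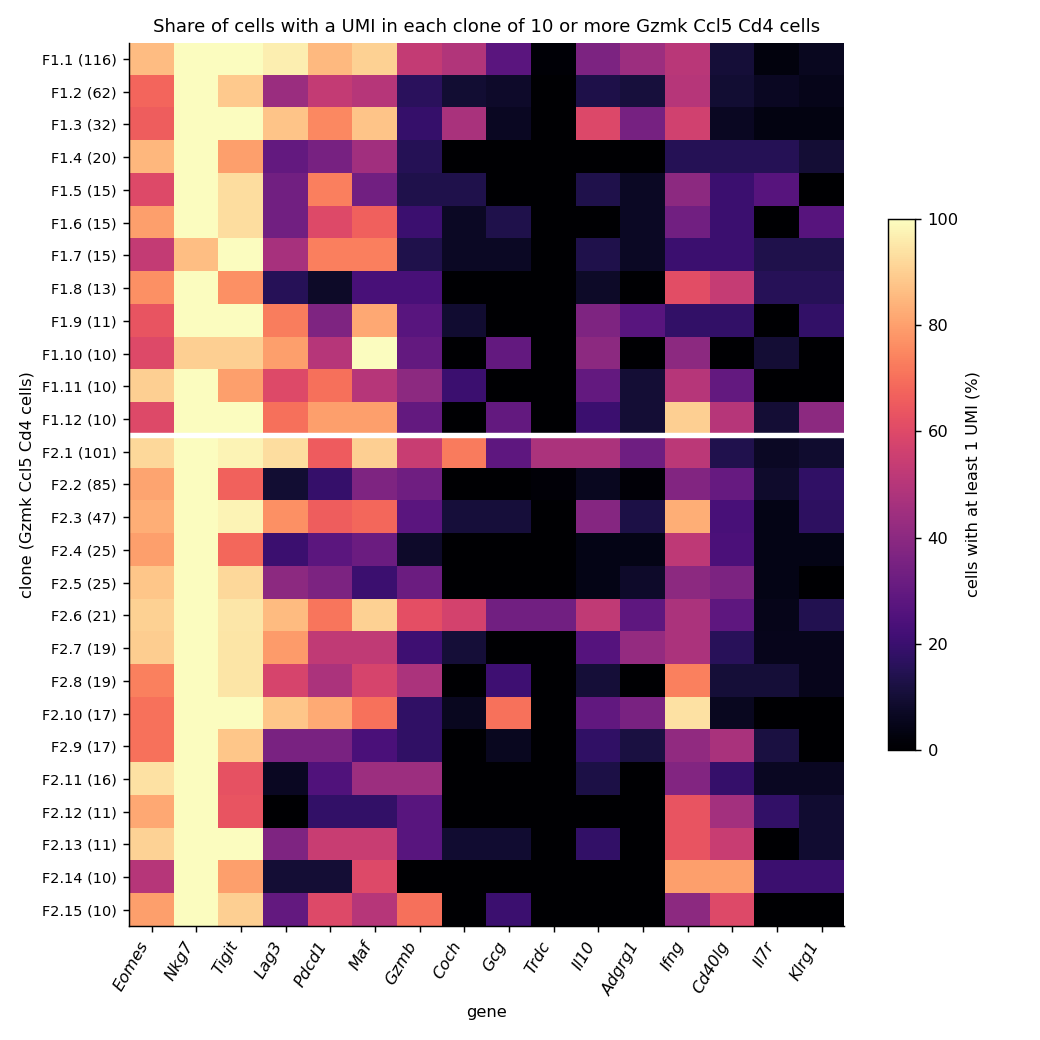
The heat map gives the percentage of members with at least 1 UMI of each gene in the 27 clonotypes that held at least 10 members, 12 from Runx1::Runx1t1 replicate 1 and 15 from replicate 2. Eomes and Nkg7 are seen in every clonotype, while Coch reaches 72.3% in F2.1 and is at 0 in 13 clonotypes.

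One receptor was written by several nucleotide sequences, which was noticed after the data were seen. F2.1, F2.6 and 4 smaller clonotypes used TRAV19 with TRAJ57 and TRBV3 with TRBJ1-2, and their CDR3s, of equal length, translate to the same residues in both chains. They held 158 cells, of which 130 were members, 127 in Runx1::Runx1t1 replicate 2 and 3 in replicate 1. The sequences of 4 versions other than F2.1 are printed here, since the bases that differ lie in the junction. Relative to F2.1 the versions differed at 0 or 1 bases in TRA and at 2 or 3 bases in TRB.
F2.6 TRA: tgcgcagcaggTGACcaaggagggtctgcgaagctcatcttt
F2.6 TRB: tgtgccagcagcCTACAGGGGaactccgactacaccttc
Version of 4 cells in replicate 2 TRA: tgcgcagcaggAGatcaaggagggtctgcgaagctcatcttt
Version of 4 cells in replicate 2 TRB: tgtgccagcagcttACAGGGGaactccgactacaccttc
Version of 8 cells in replicate 1 TRA: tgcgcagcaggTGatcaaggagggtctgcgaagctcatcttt
Version of 8 cells in replicate 1 TRB: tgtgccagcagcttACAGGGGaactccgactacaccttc
Version of 1 cell in replicate 2 TRA: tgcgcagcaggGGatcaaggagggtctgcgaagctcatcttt
Version of 1 cell in replicate 2 TRB: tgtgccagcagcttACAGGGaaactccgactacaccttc

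Receptors written by more than 1 nucleotide sequence accounted for 188 of 1419 paired member cells (13.2%), from 3 of 483 receptors. They accounted for 19 of 3337 other Cd4 cells (0.569%) and 57 of 5467 Gzmk Ccl5 Cd8 cells (1.04%), from 4 of 2897 and 6 of 1991 receptors. Of these 188 members 130 carried the same receptor, so the share of cells rests mostly on 1 receptor and was not tested. Another 48 carried the receptor of F2.3. Its second version was 1 cell that differed from F2.3 at 1 base in TRA and 0 bases in TRB. Whether that cell had a rearrangement of its own was not tested. TRAV19, TRAJ57 and TRBV3 together were in 10 of 560 members (1.79%) of Runx1::Runx1t1 replicate 1, 140 of 743 (18.8%) of replicate 2 and in no control member. Other Cd4 cells had the combination in 11 of 1155 (0.952%), 9 of 768 (1.17%), 0 of 760 and 1 of 654 (0.153%), and Foxp3 cells in 8 of 475 (1.68%) and 1 of 349 (0.287%) in the Runx1::Runx1t1 pools and in none in the control pools. In Gzmk Ccl5 Cd8 cells no pool had it. In Runx1::Runx1t1 replicate 1 the shares of members and Foxp3 cells were thus close, and in replicate 2 members had the higher one.

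Transcripts were counted over the members with this receptor. Coch was seen in 88 of its 130 members (67.7%) and Gcg in 37 (28.5%). Trdc, the constant segment of the TCR δ chain, which lies inside the α locus at chr14:54142851-54148868 on the forward strand, was seen in 55 (42.3%). F2.1 had Trdc in 47.5% and F2.6 in 33.3% of members. The 3 other versions with members had Trdc in 0, Coch in 3 and Gcg in 1 of 8 members. Among the 27 clonotypes with at least 10 members 23 had no member with Trdc, and over all members it was in 1.03% and 9.66% in the Runx1::Runx1t1 pools and 8.33% and 2.20% in the control pools. A related receptor with TRBJ2-2, found in both Runx1::Runx1t1 pools in 4 versions and 35 cells, had Trdc in 4 and Coch in 6 of its 10 members. Its remaining cells were 7 Foxp3 cells, 6 other Cd4 cells, 6 without a coreceptor UMI and 6 with UMIs of both.

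Another pair of alike receptors lay across the Runx1::Runx1t1 pools. Pairs with the same segments and nearly the same CDR3s were found in each class. They held 19 of 489 clonotypes of members (3.89%), 264 of 2896 of other Cd4 cells (9.12%) and 64 of 1985 of Gzmk Ccl5 Cd8 cells (3.22%). Per 1000000 possible pairs there were 142, 96.4 and 79.7. Most of the 17 pairs of members joined nucleotide versions of receptors already described, whose residues do not differ. Other Cd4 cells here included those with the receptor segments of invariant natural killer T cells. The part of either in these shares and rates was not tested. F1.12 with 10 members and F2.3 with 47 members both used TRAV12D-2 with TRAJ57 and TRBV16 with TRBJ1-5, and differed at 4 bases in the TRA and 1 base in the TRB CDR3, which changes 1 residue in each chain. The sequences of F1.12 are set here beside those of F2.3 printed earlier.
F1.12 TRA: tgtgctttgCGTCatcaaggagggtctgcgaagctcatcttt
F1.12 TRB: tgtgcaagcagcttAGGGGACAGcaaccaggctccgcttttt

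Both clones were deeper than most, with a median of 7046 UMIs per member in F1.12 and 8713 in F2.3 against a median of 5233 over the 27 clonotypes, so shares of cells with a UMI are set beside levels. In F1.12 Ifng was in 90.0%, Lag3 in 70.0% and Klrg1 in 40.0% of members, and in F2.3 Ifng was in 83.0%, Lag3 in 76.6% and Klrg1 in 17.02%. Over the 27 clonotypes Ifng had a median of 50% and Klrg1, a receptor of effector cells, one of 6.25%. As levels, Ifng was at 608 CPM in F1.12 and 340.0 CPM in F2.3 against a median of 196 CPM over the 27 clonotypes, Lag3 at 554 and 394 against 170.1 CPM, and Klrg1 at 108 and 19.6 against 16.4 CPM. F1.12 was chosen for its likeness to F2.3 after the sequences were seen, and no test was made.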

How the data were processed

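The members, the marker genes and the gene lists were chosen with earlier results of these data known. Raw UMI counts of called cells, as deposited by the authors, came from Cell Ranger 6.1.2 with reads mapped to GRCm38, and the authors' later filters had not been applied to them. The annotation used for counting is not given in the sources used here, and gene positions were read from GENCODE M21 on GRCm38. The deposited contig tables hold productive TRA and TRB contigs, with a count of UMIs for each.

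UMI counts were summed over the cells of a class in each pool and compared in edgeR 4.0.16 (R 4.3.3) by the quasi-likelihood test with TMM factors, filterByExpr and Benjamini-Hochberg adjustment at 0.05. The pool was a block between classes of the same pools, and 2 against 2 pools were compared between groups. Pools with under 10 members would have been left out, and none was. Shares were compared by two-sided exact permutation over pools, with 95% Wilson intervals. A clonotype needed exactly the same TRA and TRB nucleotide CDR3, each from the contig with most UMIs, and its size counted all cells of the pool. Floors used 3 counts. Named genes were those with the highest and lowest log2 difference among called genes with at least 30 UMIs on the higher side, plus list genes. Scrublet (scanpy 1.11.5), at a rate of 0.05, scored doublets, and the 5% of highest scores were marked where its threshold marked under 0.5%. Doublets stayed in the members and were left out in an alternative. Alternatives were DESeq2 1.42.0, other scalings, no filter on low counts, stricter gates, 1 cell per clonotype, other comparators, blocks and single pools left out. Where clonotypes were reduced to 1 cell per pool, every cell without a TRA and TRB pair stayed in. The tests were tried on simulated data.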

Additional observations from a re-analysis of the deposited data

Results flagged for a closer look

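The difference between the groups was not the same in members and other Cd4 cells in 170 of 10914 genes by the edgeR interaction test (1.56%). Control members lay closer to the threshold of the gate, and the part of this in the result was not tested. Given here by size are 6 of the genes, 3 in each direction. Each has the log2 difference of the 2 differences between groups and its Benjamini-Hochberg adjusted p. Of 22 genes followed for the interaction, 15 did not pass with 1 cell per clonotype. With at least 2 Gzmk and 2 Ccl5 UMIs 12 of the 22 did not pass, and none turned under either. Coch had 4.62 (adjusted p = 0.0264), at 126 and 105 and 3.48 and 1.76 CPM in members and 5.67 and 1.35 and 1.80 and 1.91 CPM in other Cd4 cells of the Runx1::Runx1t1 and control pools. It had been named as a marker with results of these data known, so its value is a description. Dapk2 had 3.79 (adjusted p = 0.0190), at 35.7 and 33.1 and 3.48 and 1.76 CPM in members and 2.83 and 2.37 and 2.79 and 2.39 CPM in other Cd4 cells. For both genes the difference between groups was larger in members, and neither passed when either control pool was left out.

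H2-Eb1, an MHC class II gene, had 4.26 (adjusted p = 0.0214), at 2.04 and 6.11 and 0 and 1.76 CPM in members and 4.19 and 9.14 and 5.39 and 55.0 CPM in other Cd4 cells. Its UMIs in members were few, and 27 of the 39 in members of Runx1::Runx1t1 replicate 2 came from 1 cell. The highest level, 55.0 CPM, was that of other Cd4 cells in control replicate 2. It did not pass without Runx1::Runx1t1 replicate 2 (3.95, adjusted p = 0.111) or without control replicate 2 (6.92, adjusted p = 0.692).

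On the other side Gpm6b, a membrane glycoprotein gene, had −3.27 (adjusted p = 7.60e-04), at 1.79 and 1.25 and 38.3 and 21.2 CPM in members and 23.7 and 15.6 and 48.7 and 28.7 CPM in other Cd4 cells. Tfap4, which encodes a factor that sustains T cell growth, had −2.58 (adjusted p = 0.0446), at 1.53 and 3.45 and 24.4 and 12.3 CPM in members and 9.86 and 13.7 and 10.97 and 14.6 CPM in other Cd4 cells. Sox4 had −2.50 (adjusted p = 0.00126), at 4.08 and 5.64 and 41.8 and 51.1 CPM in members and 12.6 and 14.7 and 22.1 and 24.1 CPM in other Cd4 cells, with 14 of the 29 UMIs of control replicate 2 members in 1 cell. All 3 were lower in both Runx1::Runx1t1 than in both control member pools. Without control replicate 2 none of the 3 passed, at −3.28 for Gpm6b (adjusted p = 0.0566), −3.33 for Tfap4 (adjusted p = 0.164) and −2.36 for Sox4 (adjusted p = 0.150), and Tfap4 did not pass without control replicate 1 either, at −1.998 (adjusted p = 0.240).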

How the results depend on the processing

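Only 2 pools of 2 mice stood in each group, the control members summed to 287027 and 567276 UMIs, and permutation tests could not pass, so stability rests on the alternatives. Of the genes compared between groups in members, 46 were followed. Genes that lost their call did so without a change of direction, and the cause was not tested. The genes called between members and other Cd4 cells, 1482, became 849 by DESeq2 and 367 to 1780 with 1 pool left out (367 without Runx1::Runx1t1 replicate 2, 446 without replicate 1). Between groups in members, 138 became 507 without a filter on low counts, 44 with at least 2 Gzmk and 2 Ccl5 UMIs, 33 with 1 cell per clonotype and 122 to 409 with 1 pool left out (409 without control replicate 1). In other Cd4 cells, 47 became 15 with library totals, 545 without the filter, 19 without doublets and cells with 2 TRB chains, 8 without cells with TRAV11 and TRAJ18 (an alternative chosen after seeing the data) and 20 to 122 with 1 pool left out. Between members and Gzmk Ccl5 Cd8 cells, 577 became 1003 without the filter, 1033 with 1 cell per clonotype and 303 to 622 with 1 pool left out. For the interaction, 170 became 62 by DESeq2, 354 without the filter, 74 with the stricter gate, 72 without doublets and cells with 2 TRB chains, 16 with 1 cell per clonotype, 66 without cells with TRAV11 and TRAJ18 (also chosen after seeing the data), and 33 to 194 with 1 pool left out (33 without control replicate 2). The difference in the share of members, 33.6 points, became 18.5 with each clonotype once and every cell without a TRA and TRB pair kept. It became 5.42 as a share of all kept cells, 5.71 as a share of Cd3 cells, and 25.6 to 41.7 with 1 pool left out. That in the share within clonotypes of at least 2 cells, 40.2 points, became 46.1 with the stricter gate, 34.8 after thinning, 33.8 with TRB alone and 36.7 to 43.8 with 1 pool left out, and that between members and other Cd4 cells, 40.4, ranged from 32.6 to 47.9. Against other Cd4 cells, Klrb1c turned to 0.508 and Klrk1 to 0.00033 with Cd4 cells without Gzmk and Ccl5 as the comparator, and Klrg1 to −1.85 with Foxp3 cells added to it.

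The replicate numbers pair the pools by number only. Deviations from the group means of same-numbered pools correlated at 0.134 across genes in members and 0.0957 in other Cd4 cells. With the replicate block 416 genes were called between groups in members, where all 46 genes kept their call, and 87 in other Cd4 cells. For the shares, the mean of differences within replicate numbers equals the difference of group means by construction. The block therefore could not change the 33.6 and 40.2 points. Without the replicate block that pairs classes of a pool, 139 genes were called between members and Gzmk Ccl5 Cd8 cells.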
